A study of Homo sapiens with 4 samples.

Results

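CPA4, SEMA7A, MYEOV, KRTAP2-3 and BTBD19 are 5 genes that stood high in a ranking of the transcriptome of WDR43-knockdown cells, out of 29286 genes listed by Ensembl identifier in each library. They were chosen by name, with that ranking known, so their levels and ranks are given as a description without a test. RNA sequencing covered 4 libraries of HCT116, an established line of human colorectal carcinoma cells. In 2 libraries the cells carried a lentiviral short hairpin against WDR43 (shWDR43), and in 2 a control hairpin, called shNC here and shNC2 in titles. In both groups 3 days of puromycin followed 48 h of infection. WDR43 takes part, in the nucleolus, in assembling the small ribosomal subunit. The labels name a single WDR43 hairpin, and the level of WDR43 itself was not analysed here, so the knockdown was not checked. Nothing in them says that replicates are separate cultures. The p-values below therefore reflect how far these 4 libraries vary, which may be technical variation alone.

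The 5 genes encode unlike proteins. CPA4 is a secreted zinc carboxypeptidase that is made as an inactive precursor and removes hydrophobic residues from the carboxyl end of peptides, and latexin is a protein inhibitor of its family. SEMA7A is a semaphorin held on the cell surface by a lipid anchor, and it binds plexin C1 and integrins that contain the beta1 chain. MYEOV takes its name from overexpression in myeloma, where its chromosome arm is often rearranged together with CCND1, and what its protein does is poorly known. KRTAP2-3 is a keratin-associated protein, one of a large family that cross-links keratin filaments in the hair shaft. BTBD19 carries a BTB domain, a fold through which many proteins pair with each other, and is little characterised.

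Promoter sequences from RefSeq (GRCh38.p14) were found for 4 of the 5 genes. They are shown because they let the upstream regions of genes that stood high together be compared base by base. Each line gives the 250 bases before the start annotated in RefSeq, 5′ to 3′ on the gene's own strand. Capitals mark matches to any of 4 motifs, searched on both strands. These were TGANTCA for AP-1, GGAATG for TEAD, TATAAA for the TATA box, and the decamer consensus of a single p53 half-site.
CPA4 (chr7:130292911-130293160, plus strand): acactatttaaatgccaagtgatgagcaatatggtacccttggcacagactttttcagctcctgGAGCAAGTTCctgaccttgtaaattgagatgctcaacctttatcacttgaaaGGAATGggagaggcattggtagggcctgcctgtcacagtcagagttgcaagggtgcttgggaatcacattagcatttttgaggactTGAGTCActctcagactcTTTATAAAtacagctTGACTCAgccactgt
SEMA7A (chr15:74433959-74434208, minus strand): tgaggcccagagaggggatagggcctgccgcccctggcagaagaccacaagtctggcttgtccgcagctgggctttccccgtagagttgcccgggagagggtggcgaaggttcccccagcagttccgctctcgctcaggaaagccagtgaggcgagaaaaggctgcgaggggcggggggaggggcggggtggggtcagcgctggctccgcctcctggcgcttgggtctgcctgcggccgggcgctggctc
KRTAP2-3 (chr17:41060115-41060364, minus strand): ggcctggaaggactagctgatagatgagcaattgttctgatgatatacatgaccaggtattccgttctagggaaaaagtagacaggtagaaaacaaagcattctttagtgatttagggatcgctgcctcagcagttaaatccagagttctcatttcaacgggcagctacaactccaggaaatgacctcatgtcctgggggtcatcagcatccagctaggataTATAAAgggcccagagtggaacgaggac
BTBD19 (chr1:44808273-44808522, plus strand): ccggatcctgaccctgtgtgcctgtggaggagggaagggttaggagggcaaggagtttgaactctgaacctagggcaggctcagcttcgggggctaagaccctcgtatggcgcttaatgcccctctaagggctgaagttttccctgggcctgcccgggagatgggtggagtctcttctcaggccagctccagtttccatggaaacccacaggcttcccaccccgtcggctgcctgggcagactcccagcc

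The CPA4 window held the letters of all 4 motifs. TGAGTCA began at position -48 and TGACTCA at -15, counted from the base before the RefSeq start as -1. The GENCODE positions given below start CPA4 at 130293134 and BTBD19 at 44808482. The windows of these genes end at 130293160 and 44808522, so their last bases lie inside the GENCODE spans. In CPA4 that part holds TGACTCA, and TATAAA reaches into it. For SEMA7A and KRTAP2-3 the RefSeq and GENCODE starts were the same. GGAATG was at -134 and the p53 half-site match GAGCAAGTTC at -186. TATAAA was at -28, where it overlapped a match on the other strand at -30. Among 35116 RefSeq promoter windows of the same length, 6.57% held TGANTCA and 0.402% held it 2 or more times. GGAATG was held by 11.9%, TATAAA by 10.7% and the p53 half-site consensus by 5.57%. The motifs were chosen after the sequences were seen, so these shares do not measure how unusual the CPA4 window is. KRTAP2-3 shared only TATAAA with CPA4, also at -28, while the SEMA7A and BTBD19 windows held 0 matches. The windows also differed in base composition. GC made up 44.4% of the CPA4 window and 46.0% of that of KRTAP2-3, against 70.0% for SEMA7A and 61.6% for BTBD19, with a median of 58.0% over all windows. These matches describe letters in the windows and are not evidence of binding.

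Levels are in FPKM, fragments per kilobase of transcript scaled to the size of the library, a unit inferred from the values. They are per length, so they can be compared between genes. CPA4 had 55.3 and 52.6 FPKM in the shWDR43 libraries, against 12.1 and 10.2 FPKM in the shNC libraries. Both shWDR43 libraries lay far above both shNC libraries. Group means were 54.0 ± 1.91 and 11.2 ± 1.36 FPKM (SD, n = 2 each), a ratio of 4.82. In bulk RNA, more cells with a transcript and more of it per cell cannot be told apart. Among genes ordered by mean level, CPA4 stood at place 869 in shWDR43 cells and at place 4766 in shNC cells. MYEOV reached almost the same level as CPA4 in shWDR43 cells, with 55.7 and 53.55 FPKM, but had 27.1 and 24.96 FPKM in shNC cells. Its ratio of means was 2.10, the lowest of the 5 genes, from the highest shNC level.

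SEMA7A had 14.5 and 14.9 FPKM in shWDR43 libraries, against 6.55 and 6.11 FPKM in shNC libraries. Its ratio was 2.33, and the libraries of each group lay close together. KRTAP2-3 had 13.5 and 13.6 FPKM in shWDR43 libraries, against 4.69 and 4.46 FPKM in shNC libraries. BTBD19 had 10.6 FPKM in both shWDR43 libraries, against 3.77 and 3.30 FPKM in shNC libraries. KRTAP2-3 and BTBD19 thus had nearly the same ratio, 2.96 and 3.00. By mean level the order was MYEOV, CPA4, SEMA7A, KRTAP2-3 and BTBD19 in shWDR43 cells, and it was the same in shNC cells. In shWDR43 cells MYEOV and CPA4 overlapped in their library values, and the other neighbours in that order did not overlap in either group. None of the 5 was silent in control cells, where the lowest value was the 3.30 FPKM of BTBD19 in shNC replicate 2.

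**Figure D1:**
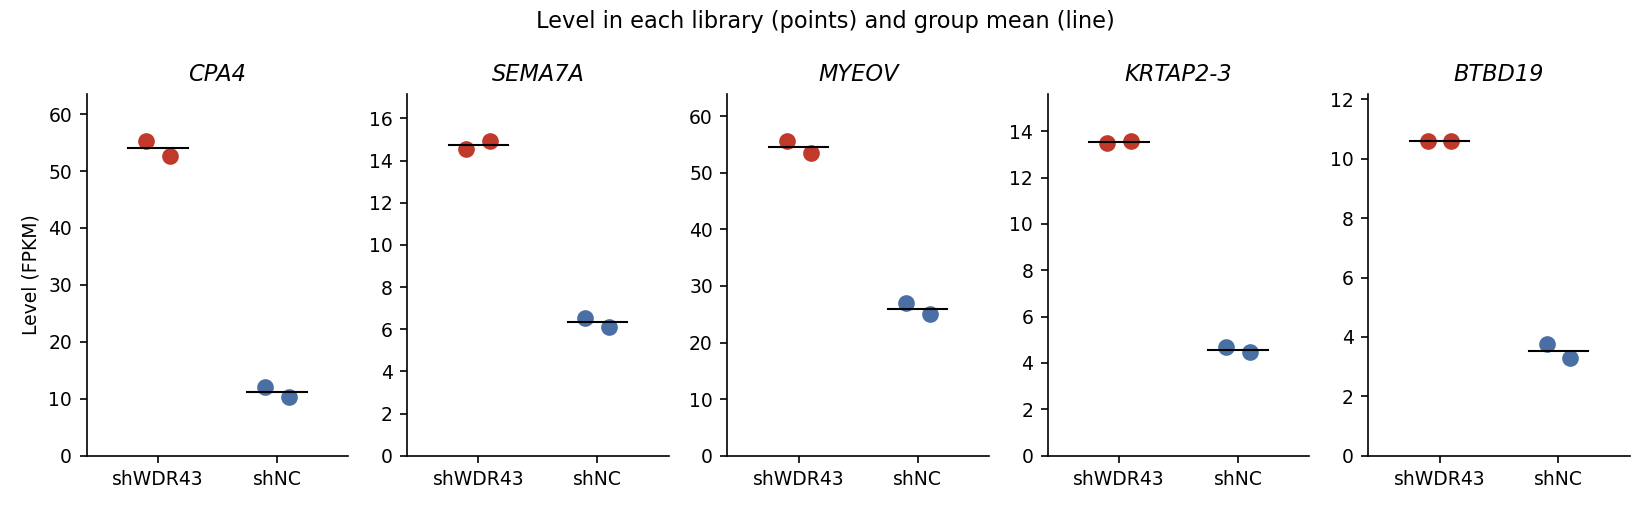
Level of each of the 5 genes in FPKM (vertical axis, own scale per panel, from 0) in the 2 shWDR43 and 2 shNC libraries. Points are libraries and lines are group means. In every panel both shWDR43 points lie above both shNC points, with the widest gap for CPA4 at 54.0 against 11.2 FPKM.

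Differences on the log2(FPKM + 1) scale are smaller than the log2 of the ratios, most of all for low genes. The differences between group means were 2.18 for CPA4, 1.38 for KRTAP2-3, 1.36 for BTBD19, 1.10 for SEMA7A and 1.04 for MYEOV. They can be set beside the spread between replicates. The 2 shWDR43 libraries differed by at most 0.07 for any of the 5 genes, and the 2 shNC libraries by 0.06 to 0.23. The widest spread between replicates was that of CPA4 between the shNC libraries. Taking each shWDR43 library against each shNC library, the smallest difference was 2.03 for CPA4, 1.35 for KRTAP2-3, 1.28 for BTBD19, 1.04 for SEMA7A and 0.96 for MYEOV. Groups did not overlap for any of the 5, but both shWDR43 libraries lay above both shNC libraries for 35.8% of tested genes as well. The genes were chosen on this contrast, so nothing is read from that count.

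The ranking held the 13303 genes that reached 1 FPKM in any 2 libraries, called tested genes here. CPA4 was at rank 3, KRTAP2-3 at 6, BTBD19 at 7, SEMA7A at 15 and MYEOV at 21. Only 26 genes had a log2 difference of 1 or more, and the median over all tested genes was 0.05. The 2 genes above CPA4 were low ones without a symbol in the name table. ENSG00000285991, just above it, had 2.99 and 4.65 FPKM in shWDR43 libraries, against 0.0343 and 0.0526 FPKM in shNC libraries. CDKN1A, the gene of the cell cycle inhibitor p21 and a classical p53 target, was just below CPA4 at 1.63. NDUFC2-KCTD14, a readthrough gene with 2.99 and 1.83 FPKM in shWDR43 libraries, against 0 and 0.432 FPKM in shNC libraries, stood just above KRTAP2-3. SFN, the gene of 14-3-3 sigma, stood just below BTBD19 at 1.30.

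Some of the rank neighbours were noisier than the 5 genes. ENSG00000258790, just below SEMA7A, had 12.3 and 2.54 FPKM in shWDR43 libraries, against 1.17 and 3.71 FPKM in shNC libraries, so its groups overlapped. CYSRT1, just above MYEOV, had 4.27 and 2.63 FPKM in shWDR43 libraries, against 1.44 and 0.807 FPKM in shNC libraries. PIM1, a serine/threonine kinase gene just below MYEOV, had a log2 difference of 1.04. The ranks of SEMA7A and MYEOV depended most on the pseudocount. With 0.1 in place of 1, which lets low genes rise in the order, CPA4 was at rank 5, BTBD19 at 14, KRTAP2-3 at 17, SEMA7A at 41 and MYEOV at 72. Without shNC replicate 2, SEMA7A was at rank 30 and MYEOV at rank 48.

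**Figure D2:**
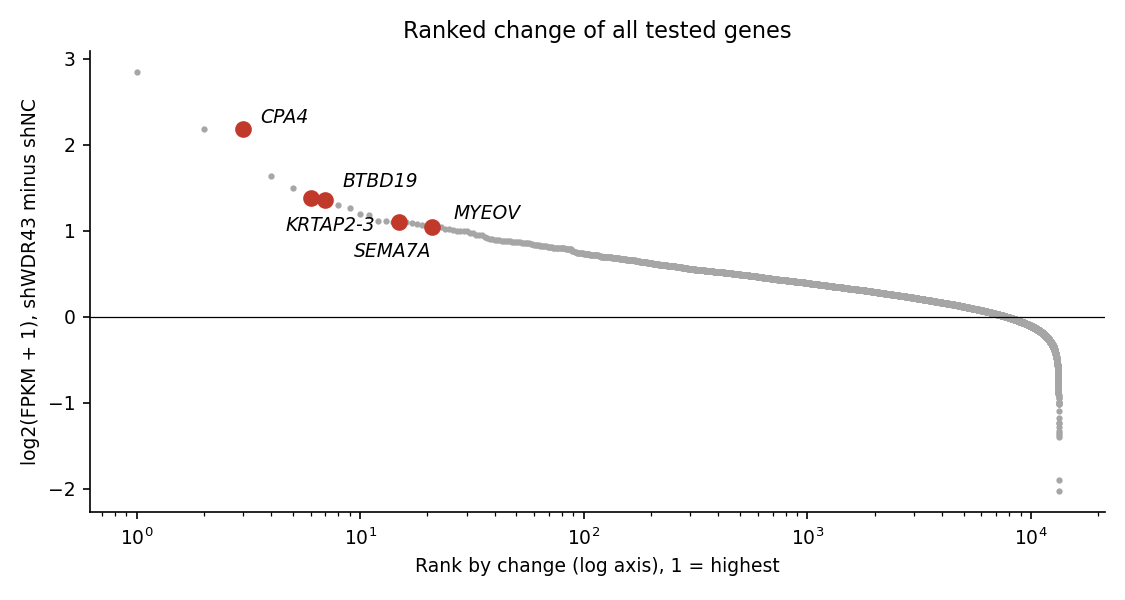
Difference in log2(FPKM + 1) between shWDR43 and shNC means (vertical axis) for 13303 tested genes in order of rank (horizontal log axis). Red points are the 5 genes, at ranks 3, 6, 7, 15 and 21, on the steep upper end of a curve whose median is 0.05.

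The genes with the most similar pattern were found by the distance between log2 profiles over the 4 libraries, each centred on the gene's own mean. KRTAP2-3 and BTBD19 were each other's nearest gene, at a distance of 0.0701. SFN and CD68, a lysosomal membrane protein gene, were the next nearest to both, at 0.167 to 0.257. MYEOV was the nearest gene to SEMA7A, at 0.0906, followed by PLK3 and by CD59, which encodes an inhibitor of complement, at 0.0945 and 0.0954. The genes nearest to MYEOV were CCNE1, the cyclin E1 gene, at 0.059, TP53INP1 at 0.0786 and the death receptor gene FAS at 0.0859. CPA4 had no close match, since its nearest genes were ENSG00000285991 at 0.442, CDKN1A at 0.576 and KRTAP2-3 at 0.805. With 4 libraries in 2 groups this measure mostly reflects the size of the group difference.

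Every tested gene, these 5 included, entered 1 limma fit with adjustment over all 13303, and results of the test are given for other genes only. It called 833 genes at an adjusted p below 0.05, which is 6.26%, with 637 higher (4.79%) and 196 lower (1.47%) in shWDR43. Without adjustment, 26.4% had a p below 0.05. These counts moved with the library left out, to 391 without shWDR43 replicate 1, 461 without shWDR43 replicate 2, 1760 (13.2%) without shNC replicate 1 and 2610 (19.6%) without shNC replicate 2. After upper-quartile scaling 191 were higher and 180 lower. Values summed to 393582 to 413758 per library, and the read depth behind them is unknown. The epithelial identity of the line was seen in its markers, of which 6 of 7 had values and 5 reached 1 FPKM. Their summed level was 2500.0 and 2442 FPKM in shWDR43 libraries, against 1744 and 2065 FPKM in shNC libraries, and VIL1 was below 0.1 FPKM in each library. KRT8, KRT18 and KRT19 made up most of that sum, while CDH1 (28.9 and 29.9 FPKM in shWDR43, against 34.1 and 29.8 FPKM in shNC) and EPCAM (159.7 and 159 FPKM in shWDR43, against 155 and 181 FPKM in shNC) overlapped between groups. Of 9 markers of blood, endothelial and connective-tissue cells 6 had values, and COL1A1 alone reached 1 FPKM. Their sum was 7.33 and 6.10 FPKM in shWDR43 libraries, against 8.13 and 7.28 FPKM in shNC libraries, and none was at 0 in all libraries. The part of these marker levels in the results was not tested.

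CPA4 (ENSG00000128510) lies on chromosome 7 at 130293134 to 130324180, plus strand. Positions are those of GENCODE release 29 on GRCh38, which gives the gene up to 11 exons. LXN, which encodes latexin, was listed at 0 and 0.0861 FPKM in shWDR43 libraries, against 0.103 and 0 FPKM in shNC libraries. Of 18 other metallocarboxypeptidase and inhibitor genes with values, 6 were tested. Limma called 0 of these 6, beside 6.26% of all tested genes, with 2 at an unadjusted p below 0.05, beside 26.4%. Their median log2 difference was 0.09. CPE, an enzyme of prohormone processing, had 20.1 ± 0.387 FPKM in shWDR43 cells and 15.3 ± 2.39 FPKM in shNC cells (SD, n = 2 each; limma adjusted p = 0.0841). CPD, a carboxypeptidase of the secretory pathway, had 18.5 ± 1.71 FPKM in shWDR43 cells and 14.8 ± 2.15 FPKM in shNC cells (limma adjusted p = 0.148). Among the alternatives, a call within the 6 appeared only with a shNC library left out, which also raised the count over all tested genes.

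Around CPA4, 9 genes within 500 kb were tested and limma called 0, beside 6.26% of all tested genes, with 3 at an unadjusted p below 0.05, beside 26.4%. Their median log2 difference was 0.17. The nearest tested genes were TMEM209, 85363 bases upstream, at -0.21, and the centrosomal gene CEP41, 69590 bases downstream, at -0.11. Without shNC replicate 1, 2 of the 9 were called higher, beside 13.2% of all tested genes, and without shNC replicate 2, 3 were, beside 19.6%. No 75-base stretch of a CPA4 transcript in GENCODE 29 occurs in a transcript of another gene, and the same was true of SEMA7A and MYEOV.

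SEMA7A (ENSG00000138623) lies on chromosome 15 at 74409289 to 74433958, minus strand, with up to 14 exons. Of its known receptors, ITGB1, the integrin beta1 gene, was abundant, at 237 ± 9.99 FPKM in shWDR43 cells and 219.8 ± 1.31 FPKM in shNC cells (SD, n = 2 each; limma adjusted p = 0.505). PLXNC1, the plexin C1 gene, was below the 1 FPKM filter, with 0.450 and 0.241 FPKM in shWDR43 libraries, against 0.319 and 0.456 FPKM in shNC libraries. ITGA1, the integrin alpha1 gene, was also below it, with 0.729 and 0.865 FPKM in shWDR43 libraries, against 0.660 and 0.623 FPKM in shNC libraries.

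Of 31 other semaphorin, plexin, neuropilin and integrin genes with values, 19 were tested, of which limma called 2 higher and 1 lower. That is 15.8%, beside 6.26% of all tested genes, with a median log2 difference of 0.11. SEMA3F, a secreted semaphorin gene, had 6.01 ± 0.502 FPKM in shWDR43 cells and 3.82 ± 0.528 FPKM in shNC cells (SD, n = 2 each; limma adjusted p = 0.0444). NRP1, the gene of a receptor for secreted semaphorins, had 2.29 ± 0.232 FPKM in shWDR43 cells and 1.10 ± 0.294 FPKM in shNC cells (limma adjusted p = 0.0492). SEMA3A, a ligand of that receptor, had 6.74 ± 0.138 FPKM in shWDR43 cells and 9.36 ± 0.280 FPKM in shNC cells (limma adjusted p = 0.0429). These calls were close to the threshold. Over the alternatives the adjusted p of limma ran from 0.0103 to 0.178 for SEMA3F, from 0.0139 to 0.171 for NRP1 and from 0.0189 to 0.228 for SEMA3A. Without shWDR43 replicate 1 it was 0.178 for SEMA3F, 0.0624 for NRP1 and 0.228 for SEMA3A. Without shWDR43 replicate 2 the calls of NRP1 (0.171) and SEMA3A (0.152) were lost, and without shNC replicate 1 that of NRP1 (0.0598). The replicate block ended the calls of SEMA3A (0.0708) and SEMA3F (0.0539). Median-ratio scaling ended those of SEMA3F (0.0614) and NRP1 (0.0623), as did upper-quartile scaling (0.075 and 0.073), and with no filter on low values none of the 3 was called. A pseudocount of 0.1 ended that of NRP1 (0.0523). With a library left out, the count called among the 19 moved in the same direction as that over all tested genes. Around SEMA7A, limma called 0 of 14 tested genes within 500 kb, beside 6.26% of all tested genes, with 2 at an unadjusted p below 0.05, beside 26.4%. The nearest were UBL7, 12018 bases upstream, at 0.21, and PML, 361476 bases downstream, at 0.14. Calls among these 14 appeared only with a shNC library left out, which also raised the count over all tested genes.

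**Figure D3:**
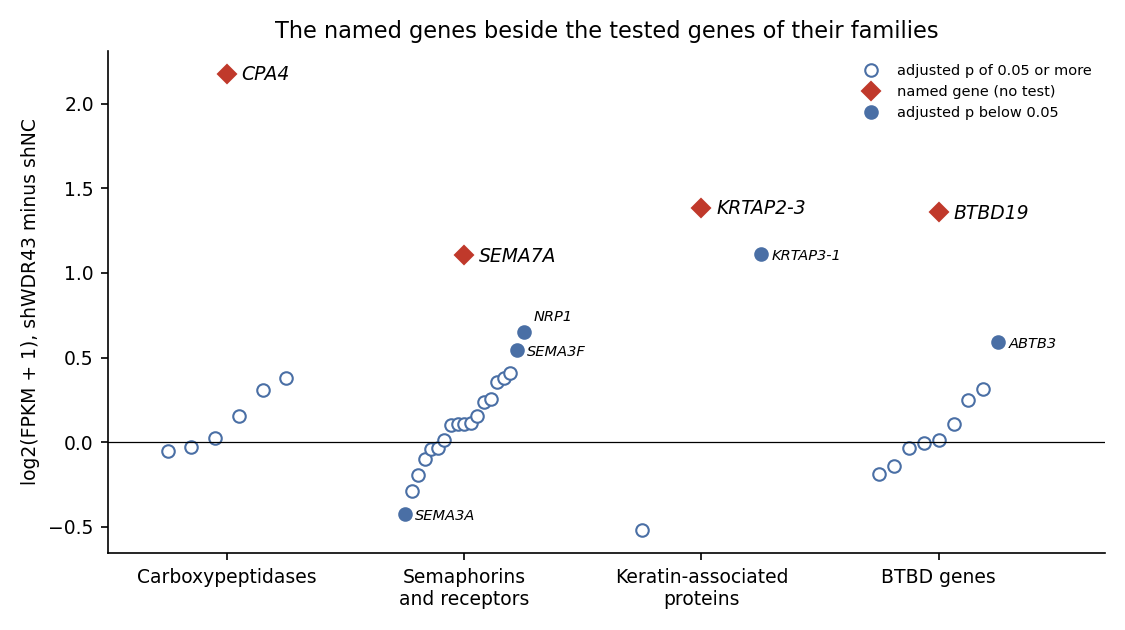
Difference in log2(FPKM + 1) between shWDR43 and shNC means (vertical axis) for the tested genes of 4 families, in columns. Red diamonds are CPA4, SEMA7A, KRTAP2-3 and BTBD19, given without a test, filled circles have an adjusted p below 0.05 and open circles do not. Each diamond lies above the other tested genes of its column, the highest of which is KRTAP3-1 at 1.11. The diamonds were chosen for being high on this axis, so nothing is read from their place.

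MYEOV (ENSG00000172927) lies on chromosome 11 at 69294138 to 69367726, plus strand, with up to 3 exons. Of 8 tested genes within 500 kb, 2 rose and 0 fell, beside 6.26% called among all tested genes, and the median log2 difference of the 8 was 0.32. One was CCND1, the gene of cyclin D1, which starts 273360 bases downstream on the same strand. CCND1 had 150.5 and 154 FPKM in shWDR43 libraries, against 75.6 and 78.5 FPKM in shNC libraries. Its log2 change was 0.97 ± 0.08 (SE; limma adjusted p = 0.00346, and 3.67e-05 to 0.0364 over the alternatives). LTO1 overlaps the 3′ end of CCND1 on the opposite strand and had a log2 difference of 0.16. The other was CPT1A, the gene of the enzyme that admits long-chain fatty acids to mitochondria, 449727 bases upstream.

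CPT1A had 22.3 ± 0.799 FPKM in shWDR43 cells and 15.95 ± 0.722 FPKM in shNC cells (SD, n = 2 each; limma adjusted p = 0.0317). Over the alternatives with all 4 libraries its adjusted p of limma ran from 0.0319 to 0.125. The CPT1A call was lost with a shWDR43 library left out, at 0.0757 without replicate 1 and 0.142 without replicate 2, and also after upper-quartile scaling (0.0567) and with no filter (0.125). ENSG00000260877, a long noncoding RNA gene 3736 bases downstream of MYEOV on the same strand, had 2.76 and 2.56 FPKM in shWDR43 libraries, against 1.22 and 2.74 FPKM in shNC libraries, so its groups overlapped. On the other side the nearest tested gene was TPCN2, 131697 bases upstream, with a log2 difference of 0.42 (limma adjusted p = 0.193). FGF19, the gene of a growth factor that lies beyond CCND1, differed by -0.02. Around MYEOV fewer genes were called with a shWDR43 library left out and more with a shNC library left out, as over all tested genes.

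**Figure D4:**
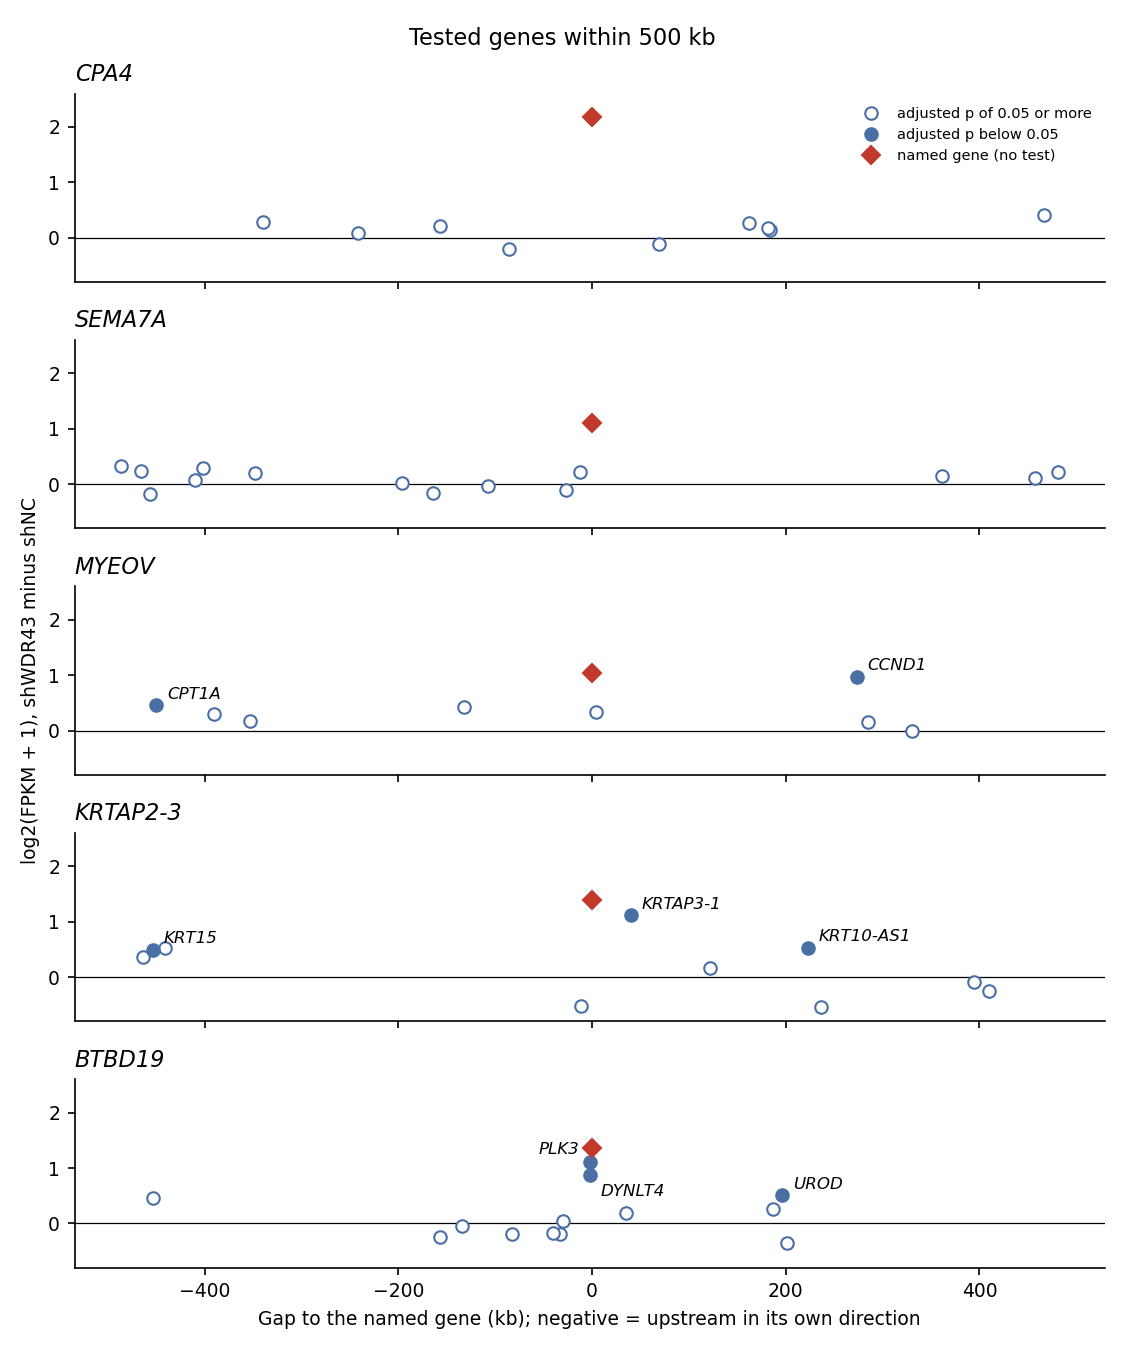
Difference in log2(FPKM + 1) between shWDR43 and shNC means (vertical axis) for tested genes within 500 kb of each of the 5 genes, against the gap to that gene in kb (horizontal axis, negative upstream). Red diamonds are the 5 genes, filled circles have an adjusted p below 0.05 and open circles do not. No circle is filled around CPA4 and SEMA7A, while 2 are filled around MYEOV and 3 each around KRTAP2-3 and BTBD19.

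KRTAP2-3 (ENSG00000212724) is a gene of 1 exon on chromosome 17, at 41059240 to 41060114 on the minus strand, within a cluster of keratin-associated protein genes. Its transcript of 875 bases shares 36.1% of its 75-base stretches with transcripts of KRTAP2-1, KRTAP2-2 or KRTAP2-4. Reads that lie wholly within such shared sequence cannot be assigned to 1 gene. The kinship extends into the promoters. The lines below give the 60 bases before the KRTAP2-3 start and the best ungapped match near the starts of the other 3 genes, from RefSeq (GRCh38.p14), all on the minus strand. Capitals mark bases that differ from KRTAP2-3.
KRTAP2-3 (chr17:41060115-41060174): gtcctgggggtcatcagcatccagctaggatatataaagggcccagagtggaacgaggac
KRTAP2-2 (chr17:41055276-41055335): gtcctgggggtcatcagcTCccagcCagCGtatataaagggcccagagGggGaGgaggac
KRTAP2-4 (chr17:41065910-41065969): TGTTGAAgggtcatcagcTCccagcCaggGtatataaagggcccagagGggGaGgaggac
KRTAP2-1 (chr17:41047332-41047391): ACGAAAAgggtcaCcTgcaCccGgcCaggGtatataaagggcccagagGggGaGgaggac

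The stretch was the same as in KRTAP2-3 at 52 of 60 bases in KRTAP2-2, 46 in KRTAP2-4 and 44 in KRTAP2-1, and TATAAA was in all 4. The matched stretch ended 45 bases before the annotated start in KRTAP2-2, 30 in KRTAP2-4 and 15 in KRTAP2-1, so TATAAA is not equally placed. The deposited levels of the relatives were low. KRTAP2-4 had 0.394 and 0.580 FPKM in shWDR43 libraries, against 0.328 and 0.0618 FPKM in shNC libraries. KRTAP2-2 had 0.173 and 0.178 FPKM in shWDR43 libraries, against 0.0939 and 0.0493 FPKM in shNC libraries. Both were below the 1 FPKM filter, and no value was found under the symbol KRTAP2-1. How reads of the shared stretches were split among these genes is not given, so the level of KRTAP2-3 is uncertain to that extent.

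Of 21 other genes with a KRTAP symbol and with values, 19 did not pass the filter, the highest of them at 0.580 FPKM. This list, called keratin-associated proteins below, was made by symbol. It therefore also holds an antisense gene and pseudogenes, which are not genes of such proteins. KRTAP3-1, 39915 bases away, passed it only through the shWDR43 libraries, so it had to differ. It had 1.03 and 1.53 FPKM in shWDR43 libraries, against 0.0984 and 0 FPKM in shNC libraries (limma adjusted p = 0.0241, and 0.0011 to 0.104 over the alternatives, the highest with no filter on low values). It shares no 75-base stretch with another gene. The pseudogene KRTAP2-5P, the other tested one, had 0.744 and 1.54 FPKM in shWDR43 libraries, against 2.30 and 1.77 FPKM in shNC libraries (limma adjusted p = 0.153). Without shWDR43 replicate 2 limma called both of this pair. The hair keratins, filament partners of keratin-associated proteins, were low. Of 17 listed, 6 had values and none passed the filter, with KRT32 the highest at 0.744 and 0.582 FPKM in shWDR43 libraries, against 0.320 and 0.316 FPKM in shNC libraries.

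Within 500 kb of KRTAP2-3, limma called 3 of 10 tested genes higher and 0 lower, which is 30.0% beside 6.26% of all tested genes, with a median log2 difference of 0.26. KRTAP3-1 and KRT13 passed the filter through 1 group only, and without them 2 of 8 were called. Besides KRTAP3-1 these were KRT15, a keratin of basal epithelial cells, and KRT10-AS1, both named after their values were seen. KRT15 had 28.6 ± 1.54 FPKM in shWDR43 cells and 20.1 ± 2.46 FPKM in shNC cells (SD, n = 2 each; limma adjusted p = 0.0379, and 0.00479 to 0.142 over the alternatives). KRT10-AS1 had 5.65 ± 0.532 FPKM in shWDR43 cells and 3.60 ± 0.110 FPKM in shNC cells (limma adjusted p = 0.0364). Over the alternatives with all 4 libraries its adjusted p of limma ran from 0.0365 to 0.132. Without shWDR43 replicate 1 both calls were lost, at 0.125 for KRT15 and 0.223 for KRT10-AS1, as they were under either scaling and with no filter. The replicate block ended that of KRT10-AS1 (0.0502). KRT10-AS1 overlaps KRT10 on the opposite strand, and no strand setting is given for the counting. Under either scaling alternative, 1 of the 10 was called. Without shWDR43 replicate 1 only 1 of the 10 was called, while without shNC replicate 1, 3 were higher and 2 lower. Without shWDR43 replicate 2, 3 were higher and 1 lower.

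BTBD19 (ENSG00000222009) lies on chromosome 1 at 44808482 to 44815585, plus strand, 2491 bases downstream of PLK3 on the same strand. PLK3, which encodes a polo-like kinase induced by stress, had 45.2 and 44.4 FPKM in shWDR43 libraries, against 20.03 and 20.5 FPKM in shNC libraries. Its log2 change was 1.11 ± 0.08 (SE; limma adjusted p = 0.00304, and 4.46e-09 to 0.0364 over the alternatives), at rank 14. PLK3 was higher than BTBD19 in every library. BTBD19 stood at 23.5% and 23.9% of the level of PLK3 in shWDR43 libraries, against 18.8% and 16.1% in shNC libraries. The share was thus higher in both shWDR43 libraries than in either shNC library. BTBD19 was chosen with its high rank known, so nothing is read from that share.

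DYNLT4, the gene of a dynein light chain protein, lies between them on the opposite strand and overlaps the last 78 bases of PLK3. It had 2.32 and 3.43 FPKM in shWDR43 libraries, against 1.04 and 1.14 FPKM in shNC libraries. Its log2 change was 0.87 ± 0.16 (SE; limma adjusted p = 0.0322, and 0.000438 to 0.13 over the alternatives). The DYNLT4 call was lost without shWDR43 replicate 2 (0.0974) and with no filter (0.13). It stood at 5.13% and 7.74% of PLK3 in shWDR43 libraries, against 5.21% and 5.57% in shNC libraries, so that share overlapped between groups. Reads of DYNLT4 and PLK3 cannot be told apart in the overlap without a strand setting. Of the 75-base stretches in BTBD19 transcripts, 4 of 3874 occur in another gene, LUCAT1, and none in PLK3 or DYNLT4. Whether transcripts that run on from PLK3 add to the BTBD19 level was not tested.

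**Figure D5:**
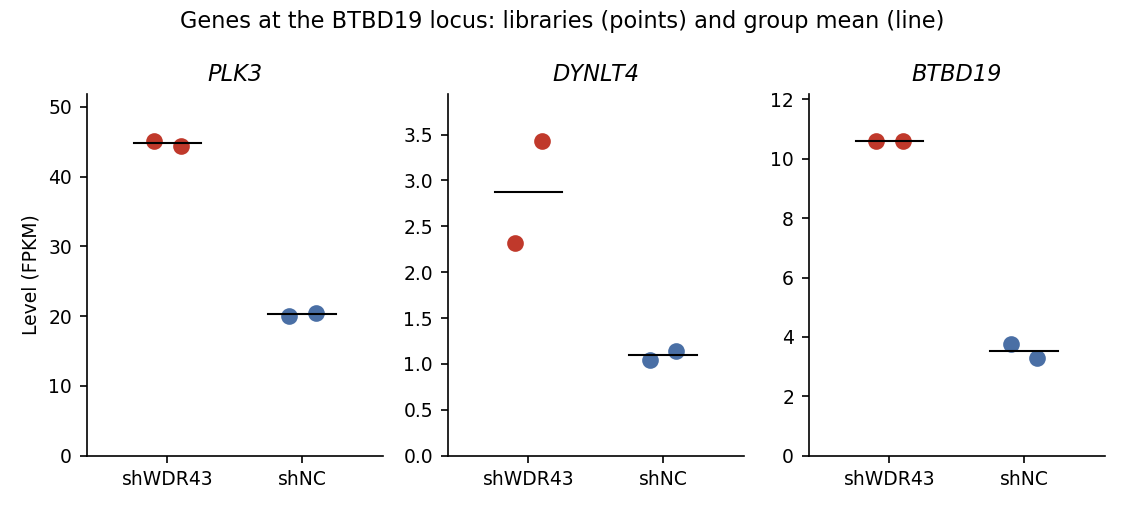
Levels in FPKM (vertical axis, own scale per panel, from 0) of PLK3, DYNLT4 and BTBD19, 3 neighbouring genes on chromosome 1, in the 2 shWDR43 and 2 shNC libraries. Points are libraries and lines are group means. In each panel both shWDR43 points lie above both shNC points, at 44.8 against 20.3 FPKM for PLK3 and 10.6 against 3.54 FPKM for BTBD19 on average.

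Of 13 tested genes within 500 kb of BTBD19, 3 rose and 0 fell, which is 23.1% beside 6.26% of all tested genes, with a median log2 difference of 0.04. Besides PLK3 and DYNLT4 this was UROD, an enzyme gene of heme synthesis, named after its value was seen, 196561 bases downstream. UROD had 21.7 ± 0.308 FPKM in shWDR43 cells and 15.0 ± 2.23 FPKM in shNC cells (SD, n = 2 each; limma adjusted p = 0.0393, and 0.00376 to 0.146 over the alternatives). The UROD call was lost without shWDR43 replicate 1 (0.0702), after median-ratio scaling (0.0629), after upper-quartile scaling (0.0792) and with no filter (0.146). The nearest tested gene downstream, EIF2B3, had a log2 difference of 0.19 (limma adjusted p = 0.294). Fewer of the 13 were called with a shWDR43 library left out, as over all tested genes. Over all 5 loci, 8 of 54 tested genes rose and 0 fell, which is 14.8%, with a median log2 difference of 0.17. Without the 4 of the 54 that passed the filter through 1 group only, KRTAP3-1 among them, 7 of 50 were called (14.0%), beside 6.13% of all tested genes chosen the same way. The count among the 54 fell with a shWDR43 library left out and rose with a shNC library left out, as over all tested genes. Without shNC replicate 1 or shWDR43 replicate 2, some of the 54 were called lower.

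Of 9 other BTBD genes tested, limma called 1 higher and 0 lower, which is 11.1% beside 6.26% of all tested genes, with a median log2 difference of 0.02. ABTB3, also known as BTBD11, had 6.20 ± 0.508 FPKM in shWDR43 cells and 3.78 ± 0.584 FPKM in shNC cells (SD, n = 2 each; limma adjusted p = 0.037). Over the alternatives with all 4 libraries its adjusted p of limma ran from 0.0381 to 0.138. The call was lost without shWDR43 replicate 2 (0.107), after upper-quartile scaling (0.0581) and with no filter (0.138). More of the 9 were called with a shNC library left out, as over all tested genes.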

How the data were processed

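The deposited values of each library, 1 table per library, are taken to be FPKM. The labels give no unit, and the values are not whole and sum to 393582 to 413758. Per the submitters' processing notes, which state no role or order, the tools were HISAT2, RSEM, edgeR, Trimmomatic, FastQC and CASAVA 1.8, with GRCh38. Per the labels' protocols, a TruSeq kit was used on 1 ug of RNA. Sources used here name no annotation release and no strand setting. Ratios of low values between libraries showed no whole-read steps (at most 0.996% of genes in a 1% window), so reads were not recovered, depth is unknown and no counting interval is given.

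Symbols came from a name table (29170 of 29286 genes, 1 blank row left out) and positions from GENCODE release 29. The 13303 genes that reached 1 FPKM in any 2 libraries were fitted on log2(FPKM + 1) by limma 3.58.1 (R 4.3.3), with group as the only term, trend and robust moderation, and two-sided p-values adjusted by Benjamini-Hochberg with a threshold of 0.05. An exact permutation test with 2 libraries a group cannot go below p = 0.333, so none was run. The model was run on data simulated from its own fitted variances, without library effects. That run cannot show how the model behaves on these libraries. The members, gene lists, motifs and tests were chosen with earlier results of these data known, and the motifs after the sequences were seen. The named genes are the members, PLK3 and the gene overlapping it, the nearest tested genes on each side, neighbours in rank and in profile, the KRTAP2 genes and, per list and among neighbours within 500 kb, up to 4 called genes with the smallest p or else the 2 smallest. ITGB1, PLXNC1, ITGA1, LXN, KRT32, LTO1 and FGF19 were added for their role or place. Alternatives were a pseudocount of 0.1, no filter, median-ratio and upper-quartile scaling, a replicate block and each library left out. Python 3.11.15 with pandas 2.3.3 computed the other values, and matplotlib 3.10.9 drew the figures.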

Additional observations from a re-analysis of the deposited data

How the results depend on the processing

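Over the alternatives the log2 differences of the 5 genes, which were chosen for being high in this contrast, ranged from 2.06 to 2.29 for CPA4, 1.32 to 1.55 for KRTAP2-3, 1.28 to 1.56 for BTBD19, 1.04 to 1.21 for SEMA7A and 0.97 to 1.10 for MYEOV. Counts of called genes moved. Over all tested genes 833 became 17 with no filter on low values, 452 after median-ratio scaling, 371 after upper-quartile scaling and 391 to 2610 with a library left out. Of neighbours within 500 kb 8 became 2 with no filter, 5 and 4 under those scalings, and 4 to 17 with a library left out. Of semaphorins and receptors 3 became 0 with no filter, 1 under either scaling, and 0 to 5 with a library left out. The keratin-associated proteins went to 0 with no filter and 1 to 2 with a library left out, and the BTBD genes to 0 with no filter and after upper-quartile scaling and 0 to 2 with a library left out. The metallocarboxypeptidases had 0 to 1 with a library left out. The cause was not tested. Where a library was left out, its group had 1 library, taken to vary as the other group did. The replicate numbers of the labels are not said to mark a shared batch, and the deviations of same-numbered libraries correlated at -0.147 over genes. With a replicate block 563 genes were called, 7 neighbours and 1 of the semaphorins and receptors, and the calls of SEMA3A (0.0708), SEMA3F (0.0539) and KRT10-AS1 (0.0502) were lost. With crossed numbers, added after the data were seen, the counts were 1954 over all genes, 12 neighbours, 6 semaphorins and receptors, and 2 each for keratin-associated proteins, metallocarboxypeptidases and BTBD genes. Depth is unknown, so no counting error could be given for low genes.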
